A study of Mus musculus with 9 samples.

Results

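The genes described here were 10 transcriptional targets of the tumor suppressor p53 that take part in cell death: Bax, Bbc3, Pmaip1, Fas, Tnfrsf10b, Aen, Phlda3, Perp, Trp53inp1 and Zmat3. They were given as a list of names, chosen with earlier results of these data known, and all 10 were found among the 19698 genes measured, each by the brightest of its probes. The 9 single-color microarrays measured lung RNA of male C57BL/6 mice. Of these, 4 arrays were titled Control and 5 Irradiated, the latter described as irradiated left lung tissue. The age is given as 10 weeks for every array. Whether it is the age at irradiation or at sampling is not said, so age at sampling may differ between arrays. The labels give neither dose, lung region nor time for any irradiated array, although the study used a focal high dose and a lower, diffuse dose and sampled from weeks to months, so the 5 irradiated arrays may differ in all of these. The mice were under anesthesia during irradiation, and the labels do not say whether the control mice were. RNA of replicate experiments was pooled before labeling, so each array is a pool, and the spread between arrays is that between pools and not between single mice.

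The transcription factor p53 is stabilized after DNA breaks and switches on genes that halt the cell cycle, repair DNA or kill the cell. Its death targets act by separate routes: at the mitochondrion, Bax opens the outer membrane and Bbc3 and Pmaip1 disable the proteins that hold Bax back, while Fas and Tnfrsf10b are receptors at the cell surface that start caspase activation when their ligands bind. In the lung, loss of irradiated epithelial and endothelial cells comes before the pneumonitis and fibrosis that limit radiotherapy.

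Promoter sequences from RefSeq (build GRCm38.p6, 250 bases before to 50 bases after a transcription start) were found for 5 of the 10 genes, Bax, Bbc3, Fas, Aen and Phlda3, in 8 windows. They were searched for single copies of the p53 half-site, a motif of 10 bases that reads the same on both strands and so is counted once. Whole sites, made of paired half-sites, were not searched for. An exact match was present in 8.36% of all 32851 windows of this length. Counted by gene, 9.55% of the 27025 genes in the table held one in any window, and of the 5 genes here 2 did, Bax and Aen. Pmaip1, Tnfrsf10b, Perp, Trp53inp1 and Zmat3 had no entry in the table. The stretches that follow are the one before the start of Bax (chr7:45466899-45467148, minus strand), the 30 bases around the site of Aen (chr7:78895927-78895956, plus strand) and, for the gene with the largest difference described below, the stretch before the start of Phlda3 (chr1:135765835-135766084, plus strand). Capitals mark the exact half-site.
Bax: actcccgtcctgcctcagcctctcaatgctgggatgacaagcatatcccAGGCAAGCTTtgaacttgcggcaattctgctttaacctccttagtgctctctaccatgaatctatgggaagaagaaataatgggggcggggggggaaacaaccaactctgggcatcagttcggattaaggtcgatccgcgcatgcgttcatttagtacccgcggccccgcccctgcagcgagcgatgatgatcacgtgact
Aen: agccgaagccGGGCTTGTCCgggcaaggag
Phlda3: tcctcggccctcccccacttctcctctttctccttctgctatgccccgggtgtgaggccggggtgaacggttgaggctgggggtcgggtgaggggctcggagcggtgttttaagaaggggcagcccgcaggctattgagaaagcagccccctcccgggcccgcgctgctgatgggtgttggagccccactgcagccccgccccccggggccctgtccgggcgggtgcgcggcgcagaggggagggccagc
In Bax, 191 bases lay between the half-site and the start. The half-site of Aen fell into both of its windows, after the first start and 111 bases before the second. The Phlda3 window held no exact half-site, which says only that these letters are not in this window. A match to the letters is a description of the sequence and was not measured as binding.

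Each value below is a log2 intensity of the scanner's background-corrected signal after quantile normalization across the 9 arrays. The scanner called 72.8% to 89.1% of the spots on each array well above background, no spot was saturated, and the probes of all 10 genes were well above background on every array. The irradiated and control arrays were compared probe by probe with limma, a linear model that shares variance estimates between probes, and a gene was called at a Benjamini-Hochberg adjusted p under 0.05 over all 39303 probes tested. The labeled tissue was checked against marker genes: all 6 markers of type II alveolar cells and all 5 of endothelium were well above background on every array. Irradiated array 1 stood apart in cardiac muscle markers and control array 3 in skeletal muscle markers, and counts are therefore also given without them. The background level and image position of the scans tied 8 of the arrays into 4 pairs, each of 1 control and 1 irradiated array, and irradiated array 1 had no partner. Deviations from the group means correlated within these pairs at 0.20 to 0.45 across probes, so values within pairs are given beside the pooled ones.

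Of the 10 genes, 9 had a higher mean in the irradiated arrays and 3 of them, Phlda3, Zmat3 and Tnfrsf10b, were called as higher. Among all probes tested, 0.333% were called and 0.191% were called as higher. No member was called as lower, against 0.142% of all probes. For 5 members, Phlda3, Zmat3, Tnfrsf10b, Aen and Trp53inp1, the lowest irradiated array lay above the highest control array. This held for 2.5% of all probes and for 667 of the 19698 genes by their brightest probe. The median log2 difference of the 10 members was 0.68, against 0.01 over all 19698 genes, and 7 of the 10 had a difference of at least 0.5, against 6.85% of all genes. The members are few and were chosen with results of these data in view, so these counts describe them and test nothing about p53 targets in general.

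**Figure D1:**
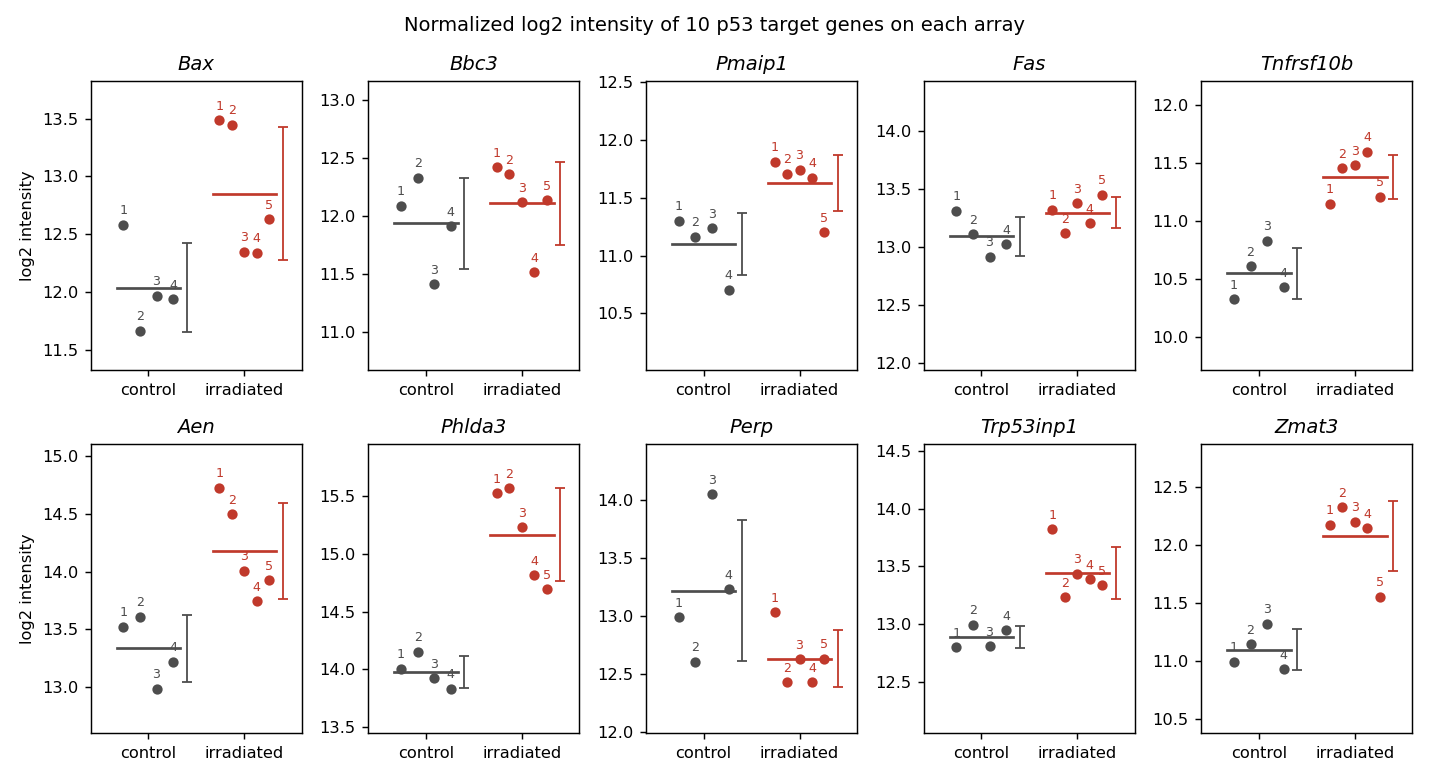
Normalized log2 intensity of each of the 10 genes on the 4 control arrays (grey) and 5 irradiated arrays (red). Each point is 1 array with its number, horizontal lines are group means, bars beside them are SDs, and each vertical axis spans the same 2.5 log2 units; Phlda3, Zmat3, Tnfrsf10b, Aen and Trp53inp1 show no overlap between groups, while Perp is lower in mean.

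The mitochondrial route was represented by Bax, Bbc3 and Pmaip1, which were all higher in mean in the irradiated arrays without passing the pooled test. With the scan pairs as a block, a fit described below, Bax and Pmaip1 were called as higher (limma adjusted p = 0.0396 and 0.0329). Bax, whose protein forms pores in the outer mitochondrial membrane, had log2 intensities of 12.58, 11.67, 11.97 and 11.94 on control arrays 1 to 4 and of 13.48, 13.45, 12.35, 12.34 and 12.63 on irradiated arrays 1 to 5. Irradiated arrays 1 and 2 were well above the other 3, and arrays 3 and 4 lay below control array 1, so the groups overlapped. The mean was 12.04 ± 0.39 (SD, n = 4) in the control arrays and 12.85 ± 0.57 (SD, n = 5) in the irradiated arrays. The difference of 0.81 (95% confidence interval 0.17 to 1.46) had a limma adjusted p of 0.342.

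Pmaip1 encodes Noxa, a small protein that binds the anti-apoptotic protein Mcl1. Its log2 intensities were 11.30, 11.16, 11.24 and 10.71 on the control arrays and 11.81, 11.71, 11.74, 11.67 and 11.20 on the irradiated arrays. Irradiated arrays 1 to 4 were close together and above every control, and array 5 fell among the controls. The difference was 0.53 (95% confidence interval 0.17 to 0.88, limma adjusted p = 0.25), and 0.31 with the authors' normalized table.

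Bbc3 encodes Puma, which binds and blocks all of the main anti-apoptotic BCL2 proteins. It had log2 intensities of 12.09, 12.33, 11.41 and 11.91 on the control arrays and of 12.42, 12.36, 12.12, 11.51 and 12.13 on the irradiated arrays. The groups covered nearly the same range, with the lowest array of each being control 3 and irradiated 4, which form a scan pair. The difference of 0.17 had an interval from −0.31 to 0.66 (limma adjusted p = 0.884), which leaves room for a difference of either sign. Without control array 3 it was −5.48e-05, and it was 0.08 with the authors' table.

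Of the 2 death receptors, Tnfrsf10b was called as higher and Fas was not. Tnfrsf10b, the mouse receptor for the ligand Tnfsf10 (TRAIL), had log2 intensities of 10.32, 10.61, 10.83 and 10.43 on the control arrays and of 11.15, 11.46, 11.48, 11.60 and 11.21 on the irradiated arrays. All irradiated arrays lay above every control, by at least 0.32. The mean rose from 10.55 ± 0.22 (SD, n = 4) to 11.38 ± 0.19 (SD, n = 5), a 1.78-fold higher level with a log2 difference of 0.83 (standard error 0.14, limma adjusted p = 0.0433). With the authors' normalized table in place of the scanner signals, the difference was 0.47 (limma adjusted p = 0.376).

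Fas, the receptor for Fas ligand, had log2 intensities of 13.32, 13.11, 12.92 and 13.02 on the control arrays and of 13.32, 13.12, 13.38, 13.21 and 13.45 on the irradiated arrays. The groups overlapped, and the whole spread over the 9 arrays was small. The difference was 0.20 with an interval from −0.03 to 0.43 (limma adjusted p = 0.569), and 0.12 with the authors' table. The difference between the responses of the 2 receptors was not itself tested.

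Phlda3 showed the largest difference of the 10 genes. Its protein is a pleckstrin homology domain that competes with the survival kinase Akt for membrane lipids. On control arrays 1 to 4 the log2 intensity was 14.01, 14.15, 13.92 and 13.83, and on irradiated arrays 1 to 5 it was 15.52, 15.57, 15.23, 14.82 and 14.69. The gap between the groups was 0.54, and the irradiated arrays spread over 0.87, more than the 0.32 of the controls. Phlda3 rose by a log2 difference of 1.19 (standard error 0.19, limma adjusted p = 0.0417), a 2.28-fold higher level, and this difference exceeded that of 98.8% of all genes.

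Zmat3, a zinc finger protein that binds RNA and is known as Wig1, had log2 intensities of 10.99, 11.14, 11.32 and 10.93 on the control arrays. On the irradiated arrays they were 12.17, 12.33, 12.20, 12.15 and 11.56. Irradiated array 5 was the lowest of its group and still 0.23 above the highest control. The mean rose from 11.10 ± 0.18 (SD, n = 4) to 12.08 ± 0.30 (SD, n = 5), a 1.98-fold higher level with a log2 difference of 0.98 (standard error 0.16, limma adjusted p = 0.042). With the authors' normalized table it was 0.66 (limma adjusted p = 0.113).

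Aen, a nuclease that digests DNA in dying cells, was measured by 2 probes. The brighter gave log2 intensities of 13.52, 13.61, 12.99 and 13.22 on the control arrays and of 14.72, 14.49, 14.01, 13.74 and 13.92 on the irradiated arrays. The groups were separated by 0.13, and irradiated arrays 1 and 2 were again the highest. The difference was 0.84 (95% confidence interval 0.37 to 1.32, limma adjusted p = 0.163). With the scan pairs as a block, this probe was called at 0.71 (limma adjusted p = 0.0412). The second probe gave 0.81 (limma adjusted p = 0.204), also with no overlap between the groups. Both probes read the same RNA pools and are not separate evidence.

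Trp53inp1 encodes a nuclear protein that assists p53 in switching on its death genes. Its brighter probe had log2 intensities of 12.80, 13.00, 12.81 and 12.95 on the control arrays and of 13.82, 13.23, 13.44, 13.39 and 13.34 on the irradiated arrays. The controls were tightly grouped, with an SD of 0.10, and each irradiated array exceeded them by at least 0.24. The difference was 0.55 (95% confidence interval 0.29 to 0.82, limma adjusted p = 0.0995). With the scan pairs as a block, this probe was called at 0.46 (limma adjusted p = 0.0323). The dimmer probe gave 0.38 (limma adjusted p = 0.294), with 4 of the 5 irradiated arrays above all controls.

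Perp, a membrane protein of desmosomes in epithelia, was the only one of the 10 genes with a lower mean in the irradiated arrays. It had log2 intensities of 12.99, 12.60, 14.05 and 13.23 on the control arrays and of 13.03, 12.43, 12.63, 12.43 and 12.63 on the irradiated arrays. Control array 3, the array with high skeletal muscle markers, was far above the rest, and irradiated arrays 2 and 4 lay below all controls. The difference of −0.59 (95% confidence interval −1.16 to −0.02) had a limma adjusted p of 0.476. Without control array 3 it was −0.31.

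The direction within the scan pairs is given gene by gene and not as a count, because the share over all probes is not at hand. In each of the 4 pairs the irradiated array was above its control partner for Bax, Pmaip1, Tnfrsf10b, Aen, Phlda3, Trp53inp1 and Zmat3. The differences within pairs were 0.86 to 1.56 for Phlda3, 0.77 to 1.14 for Tnfrsf10b, 0.63 to 1.33 for Zmat3 and 0.41 to 0.58 for Pmaip1. Bbc3 and Fas were higher in 3 of the 4 pairs, and Perp was lower in 3. With the pairs as a block, a fit in which irradiated array 1 carries no information because it has no partner, these 7 members were called as higher, where 1.55% of all probes were. The estimates were 1.10 for Phlda3, 0.96 for Zmat3, 0.89 for Tnfrsf10b, 0.71 for Aen, 0.65 for Bax, 0.48 for Pmaip1 and 0.46 for Trp53inp1. Their standard errors were smaller than without the block, from 0.09 against 0.29 for Bax to 0.12 against 0.16 for Zmat3. Of the members not called, Bbc3 also had a smaller one, at 0.09 against 0.22. Fas, at 0.11 against 0.10, and Perp, at 0.262 against 0.255, had slightly larger ones. In the fit with the block the limma adjusted p was 0.607 for Bbc3, 0.387 for Fas and 0.225 for Perp.

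**Figure D2:**
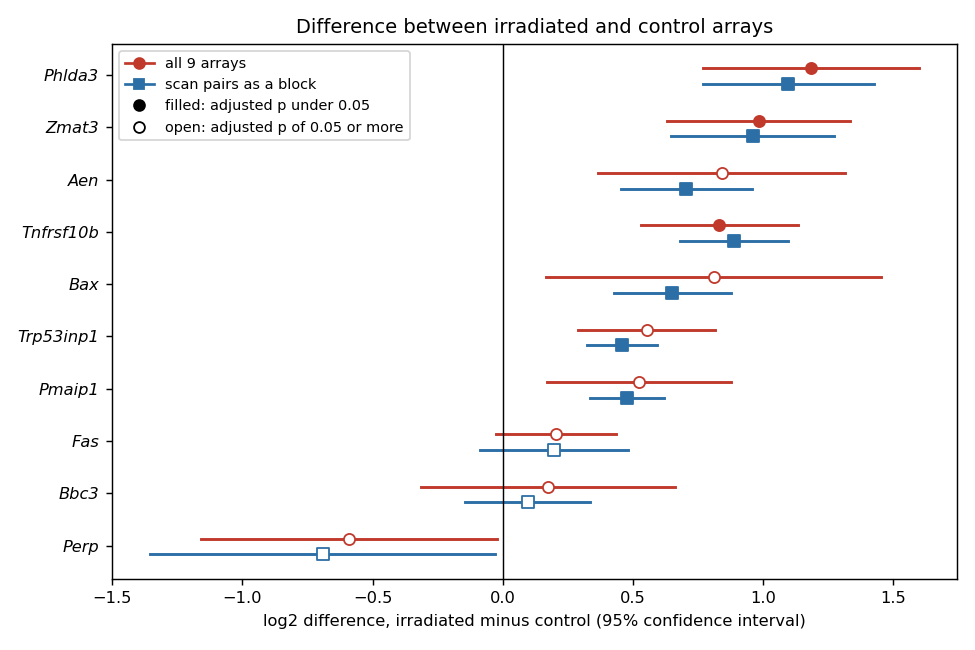
Log2 difference between irradiated and control arrays for each of the 10 genes, ordered by size, with 95% confidence intervals. Circles are the fit over all 9 arrays and squares the fit with the 4 scan pairs as a block, and filled symbols have an adjusted p under 0.05; 3 circles and 7 squares are filled, all to the right of 0.

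Without the block, the calls of single genes changed with the arrays used. Leaving out any 1 of the 4 control arrays or irradiated array 2, 3 or 4 left no member past the threshold. Of all 39303 probes, 5 to 46 were called in these fits, against 131 with all 9 arrays. Without irradiated array 1 the number of members called was 4, with Trp53inp1 added, and 474 of all probes were called. Without irradiated array 5 it was 2, Phlda3 and Zmat3, and 23 of all probes were called. Over the 9 fits with 1 array left out, the limma adjusted p ranged from 0.0301 to 0.146 for Phlda3, from 0.0195 to 0.147 for Zmat3 and from 0.0235 to 0.15 for Tnfrsf10b. The differences themselves lay between 1.09 and 1.30 for Phlda3, 0.92 and 1.12 for Zmat3 and 0.76 and 0.93 for Tnfrsf10b. Without the intensity trend of the variance, none of the 3 passed, at a limma adjusted p of 0.0751 for Phlda3, 0.0773 for Zmat3 and 0.0775 for Tnfrsf10b. Without both irradiated array 1 and control array 3, an alternative chosen after seeing the data, 1 member was called, Tnfrsf10b at 0.98. In that fit 155 of all probes were called.

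The irradiated arrays differed among themselves across the members. Relative to the control mean, the median over the 10 genes was 0.82, 0.76, 0.59, 0.45 and 0.45 on irradiated arrays 1 to 5, against −0.11 to 0.09 on the control arrays. Irradiated array 1 had the highest value of its group for Bax, Bbc3, Pmaip1, Aen, Perp and Trp53inp1 and the lowest for Tnfrsf10b. Irradiated array 4 was the highest of its group for Tnfrsf10b but the lowest for Bax, Bbc3 and Aen. Irradiated array 5 had the lowest Pmaip1, Phlda3 and Zmat3 and the highest Fas. Dose, region and time are not given for these arrays, so their part in this spread cannot be told apart from that of the pools.

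Marker genes of other cells and of cell division also differed between arrays. The 8 genes of the cell division list were all higher in mean in the irradiated arrays, with none called. As the mean of the list relative to the control mean, they were at 0.71 and 0.98 on irradiated arrays 1 and 2, and at 0.04 to 0.35 on the other 3, against −0.19 to 0.18 in the controls. The median over the members was also highest on irradiated arrays 1 and 2, lower on array 3 and lowest on arrays 4 and 5. Among single members, Bax, Bbc3, Aen and Phlda3 were highest on irradiated arrays 1 and 2, Pmaip1, Trp53inp1 and Perp were highest on array 1 and Zmat3 on array 2. Tnfrsf10b was highest on array 4 and lowest on array 1, Fas was highest on array 5 and lowest on array 2, and Trp53inp1 and Perp were lowest on array 2. The type I alveolar cell list, of which 4 of 5 genes were measured, was at 0.16 to 0.42 in the irradiated arrays against −0.13 to 0.10 in the controls, with no gene called. The macrophage list overlapped between groups, at −0.13 to 0.39 against −0.30 to 0.53, as did the T-cell list, at −0.50 to 0.40 against −0.16 to 0.13. The neutrophil list was at −1.47 to 0.31 against −0.75 to 0.99, the B and plasma cell list at −1.36 to 0.28 against −0.53 to 0.32, the endothelium list at −0.44 to 0.22 against −0.14 to 0.14, the type II alveolar list at −0.28 to 0.08 against −0.05 to 0.08 and the club and ciliated cell list at −0.33 to 0.04 against −0.21 to 0.19. Their part in the values of the 10 genes was not tested. In whole tissue, more cells of a type and more RNA per cell cannot be told apart.

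**Figure D3:**
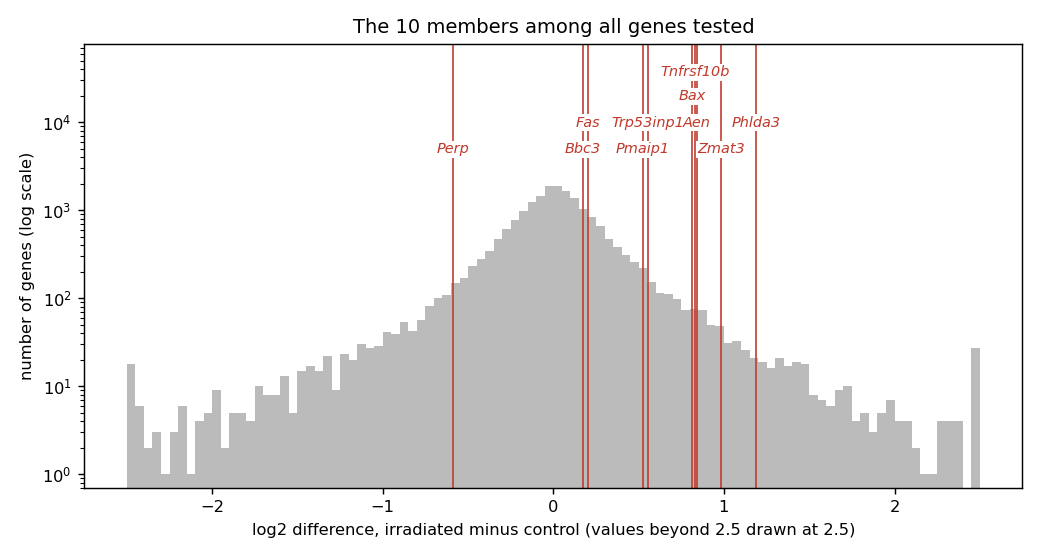
Number of genes (log scale) at each log2 difference between irradiated and control arrays, for all 19698 genes by their brightest probe (grey), with the 10 members as red lines and differences beyond 2.5 drawn in the end bars. Of the members, 9 lie to the right of 0 and Phlda3, at 1.19, lies farthest from the center.

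Other genes of the p53 and cell death pathways were read from the same fit. Of 8 further p53 targets of cell death, 7 were higher in mean and Eda2r, a receptor of the TNF family, was called. Over all 19698 genes by their brightest probe, 51.9% were higher in mean and 52 genes were called as higher. Eda2r had log2 intensities of 2.74 to 3.45 on the control arrays and of 4.95 to 6.64 on the irradiated arrays, and it was well above background on 1 of the 4 control arrays and on every irradiated one. Its log2 difference of 2.47 (limma adjusted p = 0.0327) is therefore uncertain in size. The largest difference among the rest was 0.44 for Ei24 (limma adjusted p = 0.497), and Dram1, a lysosomal protein of autophagy, was at −0.08 (limma adjusted p = 0.958).

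Of 17 genes comprising p53, its regulators and its targets in arrest, repair and stress, 12 were higher in mean and 3 were called, all as higher. As given above, 51.9% of all 19698 genes were higher in mean and 52 were called as higher. Cdkn1a, the cell cycle inhibitor p21, had log2 intensities of 10.90 to 12.25 in the controls and of 12.98 to 14.29 after irradiation, a log2 difference of 1.90 (standard error 0.31, limma adjusted p = 0.0443). Its highest array was irradiated 2 and its lowest irradiated array was 4. The calls of Cdkn1a and Eda2r were lost in 8 of the 9 fits with 1 array left out, all but the one without irradiated array 1, as well as with the authors' normalized table, without the intensity trend and with the replicate block. Eda2r also lost its call with the normexp background correction, and Cdkn1a without both irradiated array 1 and control array 3. Psrc1, which binds microtubules, differed by 2.75 (standard error 0.20, limma adjusted p = 0.00171), and the secreted stress factor Gdf15 differed by 3.64 (standard error 0.17, limma adjusted p = 5.3e-05). With the replicate block Psrc1 also lost its call and Gdf15 was still called. Mdm2, the ubiquitin ligase that degrades p53, was at 0.30 (limma adjusted p = 0.401), Trp53 itself at 0.32 (limma adjusted p = 0.775) and Mdm4, the partner of Mdm2, at −0.35 (limma adjusted p = 0.659). Ccng1, a cyclin induced by p53, had no overlap between groups and a difference of 0.96 (limma adjusted p = 0.0764).

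None of the genes of the cell death machinery outside the p53 target lists was called by limma in the fit without a block. Over all 19698 genes, 51.9% were higher in mean and 12.3% had an unadjusted p under 0.05, and the counts of these lists are to be read against those shares. Of 12 other BCL2 family genes measured, 9 were higher in mean and 3 (25.0%) had an unadjusted p under 0.05, with Bak1, a pore-forming relative of Bax, at 0.47 (limma adjusted p = 0.508) and Bmf, a BH3-only activator of death, at −0.48 (limma adjusted p = 0.25). The median of this list was 0.17. Of 13 caspases, activators and inhibitors, 8 were higher in mean, 1 (7.69%) had an unadjusted p under 0.05 and the median was 0.08, with Birc5, the apoptosis inhibitor survivin that also acts in mitosis, at 0.57 (limma adjusted p = 0.472) and Casp2 at −0.21 (limma adjusted p = 0.529). Of 10 death ligands, receptors and adaptors, 7 were higher in mean, 1 (10.0%) had an unadjusted p under 0.05 and the median was 0.08. For the caspase list and this list, the share at an unadjusted p under 0.05 was below that of all genes. Tnf was at 0.38 (limma adjusted p = 0.824). Tnfsf10, the ligand of Tnfrsf10b, was at −0.21 (limma adjusted p = 0.723).

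The scan pairs changed which pathway genes were called, and the genes named here were chosen after their values were seen. With the pairs as a block, which called 2.81% of all probes, Eda2r, Cdkn1a, Psrc1 and Gdf15 passed again and 3 genes were added: Ccng1 at 0.81 (limma adjusted p = 0.0481), the anti-apoptotic Bcl2l1 at 0.40 (limma adjusted p = 0.0418) and Bmf at −0.58 (limma adjusted p = 0.0408). With the pairs as a random block, which keeps irradiated array 1 and called 7.37% of all probes, these 7 passed and 3 more were added. Plk3, a stress kinase, was at 0.37 (limma adjusted p = 0.0272), Ddb2, which recognizes ultraviolet damage in DNA, at −0.32 (limma adjusted p = 0.0418) and Casp2 at −0.25 (limma adjusted p = 0.0465). Casp2 was 1 of the 13 genes of its list, or 7.69%, a share near that of all probes in this fit.

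**Figure D4:**
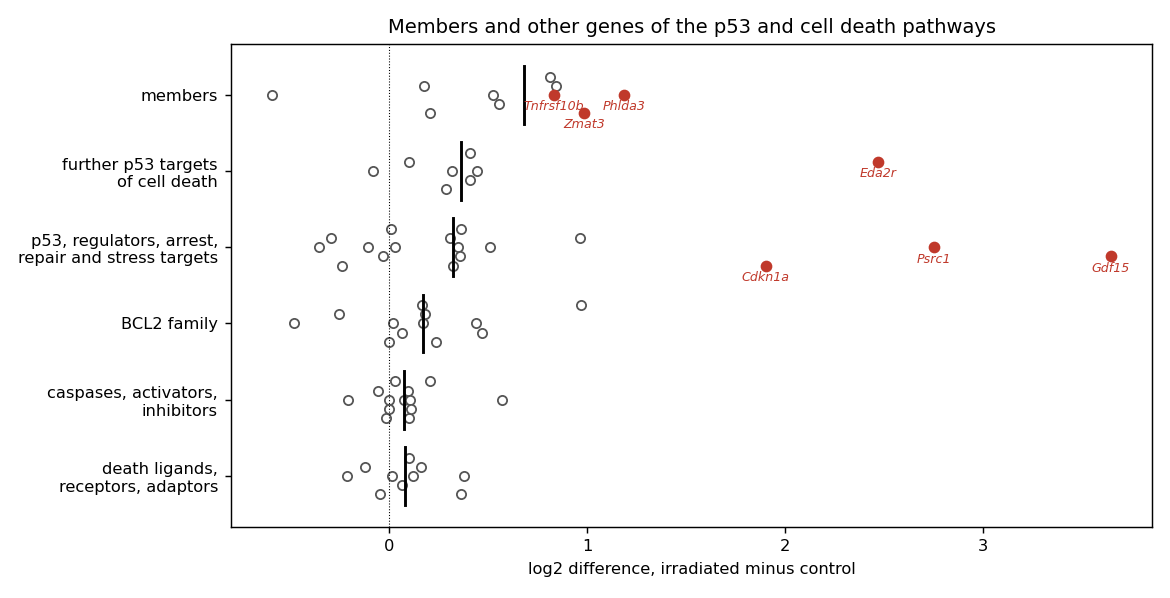
Log2 difference between irradiated and control arrays for the 10 members and for the genes of 5 other lists. Each circle is 1 gene, red filled circles have a limma adjusted p under 0.05, and black lines are list medians, which run from 0.68 for the members to 0.08 for the caspase list and the list of death ligands, receptors and adaptors.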

How the data were processed

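The members and the gene lists were chosen with earlier results of these data known. Per the file headers, the authors deposited scanner output per array (Agilent Feature Extraction): processed signal, median signal and local background, as intensity values not normalized between arrays. The authors also deposited a table of quantile-normalized intensity values, matched here to the spots by image position. Control spots and outlier spots were removed. A probe was kept (39303 of 39429) if its median signal exceeded 1.4-fold its local background on 4 or more arrays; the methods give the factor but not the number of arrays. Log2 processed signals were quantile normalized, and spots of a probe averaged. Accessions were named through a RefSeq table (GRCm38.p6), which gave a symbol for 26055 probes. The gene was represented by its brightest probe. Irradiated arrays were compared with control arrays using R 4.3.3 and limma 3.58.1, with an intensity trend and without covariates. The code was tested on simulated data. Scan pairs share an image top within 5 units and a local background within 2 units. All members were named, and of the other lists the called genes, Cdkn1a, Mdm2, Trp53 and the largest difference in each direction among genes well above background on all arrays. Alternatives changed the background correction, scaling, filter, table, block, variance trend, array weights, probe summary or arrays.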

Additional observations from a re-analysis of the deposited data

Results flagged for a closer look

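Among 42 groups of 4 control or 5 irradiated arrays (the 10 members and 11 marker lists), 4 contained 1 array whose gap to its neighbours passed Dixon's 95% limit. Chance alone gives this in about 1 of 20 groups. Irradiated array 5 passed Dixon's limit, on the low side of its group, for 2 members. Its log2 intensity was 11.20 for Pmaip1 against 11.67 to 11.81 in the other irradiated arrays, and 11.56 for Zmat3 against 12.15 to 12.33. Without this array the differences between groups were 0.63 for Pmaip1 and 1.12 for Zmat3. The cardiac muscle list was at −5.62 in irradiated array 1 against −0.50 to 0.35 in the other irradiated arrays, and the skeletal muscle list at 5.26 in control array 3 against −1.93 to −1.64 in the other controls, as means relative to the control mean. No explanation was tested for these 4 values.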

How the results depend on the processing

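Causes of the changes given here were not tested, and 1 alternative, without irradiated 1 and control 3, was chosen after seeing the data. Of the members, 9 kept the sign of their difference under all 21 alternatives. Bbc3 (0.17) reversed without control 3, at −5.48e-05, the lowest of −5.48e-05 to 0.32 with 1 array left out, and without irradiated 1 and control 3 together, at −0.078. The probes called, 131 (57.3% of them higher), were 44 with the authors' table (25.0% higher), 44 without the intensity trend (70.5% higher), 205 with array weights, 1104 with scan pairs as a block and 2895 with scan pairs as a random block, and 5 to 474 with 1 array left out. With 75th percentile scaling they were 124 (41.9% higher), and the median difference of all probes was −0.075 in place of −0.0039. The 3 members called were 1 with the authors' table (Phlda3), 0 without the trend (7 at an unadjusted p under 0.05), 7 with scan pairs as a block or as a random block, 1 without irradiated 1 and control 3 and 0 to 4 with 1 array left out. With normexp, Tnfrsf10b and, among the pathway genes, Eda2r were no longer called. The members' median difference of 0.68 was 0.46 with the authors' table and 0.57 to 0.75 with 1 array left out. The 4 genes called in the other pathway lists were 2 with the authors' table, 2 without the trend, 7 with scan pairs as a block, 10 as a random block and 2 to 5 with 1 array left out. Where 2 were called they were Gdf15 and Psrc1. The array numbers shared by both groups gave correlations of deviations from −0.17 to 0.06, and the labels do not say what these numbers stand for. A replicate block on these numbers left few calls: 1 probe, 0 members (8 at an unadjusted p under 0.05) and 1 pathway gene, Gdf15, passed, and the members' median was 0.75. The number of arrays limits the precision.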
